A study of Mus musculus with 4 samples.

Results

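Integrin subunits and the cytoplasmic proteins that join them to actin at focal adhesions were followed across the cell types of E18.5 mouse leg muscle. Its members were chosen by gene name. It held the 36 genes among the 32285 listed that code for an integrin alpha subunit (18 genes), an integrin beta subunit (8 genes) or one of 10 partners, namely Tln1, Tln2, Vcl, Ilk, Parva, Ptk2, Pxn, Fermt1, Fermt2 and Fermt3. Single-cell libraries were made from WT fetuses (2 libraries) and from littermates homozygous for a deletion of SYISL, a muscle long noncoding RNA (KO, 2 libraries). The parents of all fetuses were heterozygous for that deletion, and the labels name no treatment. The labels do not state how many fetuses went into a library, nor that the libraries came from separate animals, so every p-value below measures the spread between libraries only. No listed gene bore the name SYISL, and its locus was not analysed here, so the deleted gene gives no check of the genotype labels.

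The libraries held 41741 deposited cells, of which 36969 were kept (16692 WT, 20277 KO), at a median of 9118 to 11427 unique molecular identifiers (UMIs, counted transcript molecules) per kept cell. The 36 genes made up 0.187 to 0.200% of all UMIs of a library. Clusters were built without the 36 genes and were named from markers, which gave 10 named classes and 3 clusters left without a name. The summed level of the 10 myogenic markers was 2886 to 3231 CPM (UMIs of a gene scaled to 1000000 UMIs of the summed cells) in myogenic-like cells, against 25.4 to 99.8 in glial-like cells. It was 123 to 192 CPM in smooth muscle or pericyte-like cells, and 1132 to 1339 CPM in the unnamed cluster led by Hmcn2. KO replicate 2 held 131038 UMIs of the X-inactivation transcript Xist and a Y-linked UMI in 1.00% of its cells, whereas the other 3 libraries held at most 5 Xist UMIs and a Y-linked UMI in 85.8 to 89.9% of their cells. The sex of the fetuses and the KO replicate cannot be told apart, and values without that library are given in the comparison of the genotypes. Between 15 and 27 barcodes were shared by any pair of libraries.

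An integrin is a pair of an alpha and a beta subunit that spans the membrane, binds matrix or a counter-receptor outside the cell and is switched on from inside by talins and kindlins. Vinculin, integrin-linked kinase, alpha-parvin, paxillin and focal adhesion kinase then tie the bound pair to actin and to signalling. In muscle, the laminin receptor of alpha 7 and beta 1 anchors fibres to the basement membrane, and integrins also take part in myoblast migration and fusion.

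RefSeq promoter windows (GRCm38.p6, 250 bases before to 50 after a transcript start) were found for 24 of the 36 genes, 27 windows in all. Shown are the windows of the genes with the largest falls (Itga8, Itga1) and of 2 genes that rose (Itga4, Itgb6) between the progenitor-like and myoblast-like stages described below. The windows lie at chr2:12301895-12302194 on the minus strand (Itga8), chr13:115101915-115102214 on the minus strand (Itga1), chr2:79255176-79255475 on the plus strand (Itga4) and chr2:60722554-60722853 on the minus strand (Itgb6, the outer of 2 listed starts). Capitals mark CANNTG, the E-box core read by MyoD-family factors, a motif that is its own reverse complement.
Itga8: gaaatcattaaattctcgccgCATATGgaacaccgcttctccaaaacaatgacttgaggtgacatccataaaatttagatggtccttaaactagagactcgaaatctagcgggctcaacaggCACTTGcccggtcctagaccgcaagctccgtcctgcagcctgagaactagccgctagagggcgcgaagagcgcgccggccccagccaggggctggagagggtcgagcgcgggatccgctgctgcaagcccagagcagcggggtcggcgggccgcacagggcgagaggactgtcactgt
Itga1: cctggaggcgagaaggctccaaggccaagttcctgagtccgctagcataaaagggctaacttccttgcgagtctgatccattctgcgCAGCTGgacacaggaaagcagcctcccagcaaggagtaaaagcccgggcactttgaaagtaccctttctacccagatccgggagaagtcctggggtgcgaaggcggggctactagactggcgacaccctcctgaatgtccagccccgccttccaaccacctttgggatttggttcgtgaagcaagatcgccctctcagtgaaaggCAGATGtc
Itga4: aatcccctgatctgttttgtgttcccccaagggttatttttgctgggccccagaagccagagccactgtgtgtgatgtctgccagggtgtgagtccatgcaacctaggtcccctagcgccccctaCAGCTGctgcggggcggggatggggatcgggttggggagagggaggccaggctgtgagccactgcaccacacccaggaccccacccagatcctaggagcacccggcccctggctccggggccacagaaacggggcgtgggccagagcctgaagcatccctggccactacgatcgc
Itgb6: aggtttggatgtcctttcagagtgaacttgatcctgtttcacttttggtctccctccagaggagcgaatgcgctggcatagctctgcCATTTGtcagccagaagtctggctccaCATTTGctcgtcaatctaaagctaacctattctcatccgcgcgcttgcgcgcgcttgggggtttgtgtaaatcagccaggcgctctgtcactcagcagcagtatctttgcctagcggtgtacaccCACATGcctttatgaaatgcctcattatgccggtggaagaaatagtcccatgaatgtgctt
CANNTG was present in 20 of the 27 windows (74.1%) and in 72.3% of all 32851 RefSeq windows of that length. Its variant CAGCTG, contained in CANNTG, was present in 8 windows (29.6%), against 16.3% of all. Among genes with a window, the 2 that rose between the stages had 3 windows, all with CANNTG. The 9 that fell had 10 windows, 5 of them with CANNTG. Itga6 and Pxn, which also rose, had no window, and the difference was not tested.

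Some subunits stood out in glial-like, mast-like, neutrophil-like or mural cells, and Itgb1 was present in every class. Of the 36 genes, 30 reached a mean of 10 CPM in at least 1 of the 10 named classes, and 9 reached it in all 10. The other 6 (Itga3, Itgad, Itgae, Itgax, Itgb6 and Fermt1) stayed under that level in every named class. A gene's highest mean fell most often in glial-like cells (8 genes), followed by the smooth muscle or pericyte-like class (7 genes). Levels below are means over the 4 libraries ± SD (n = 4), and genes are compared between classes only, never with one another.

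**Figure D1:**
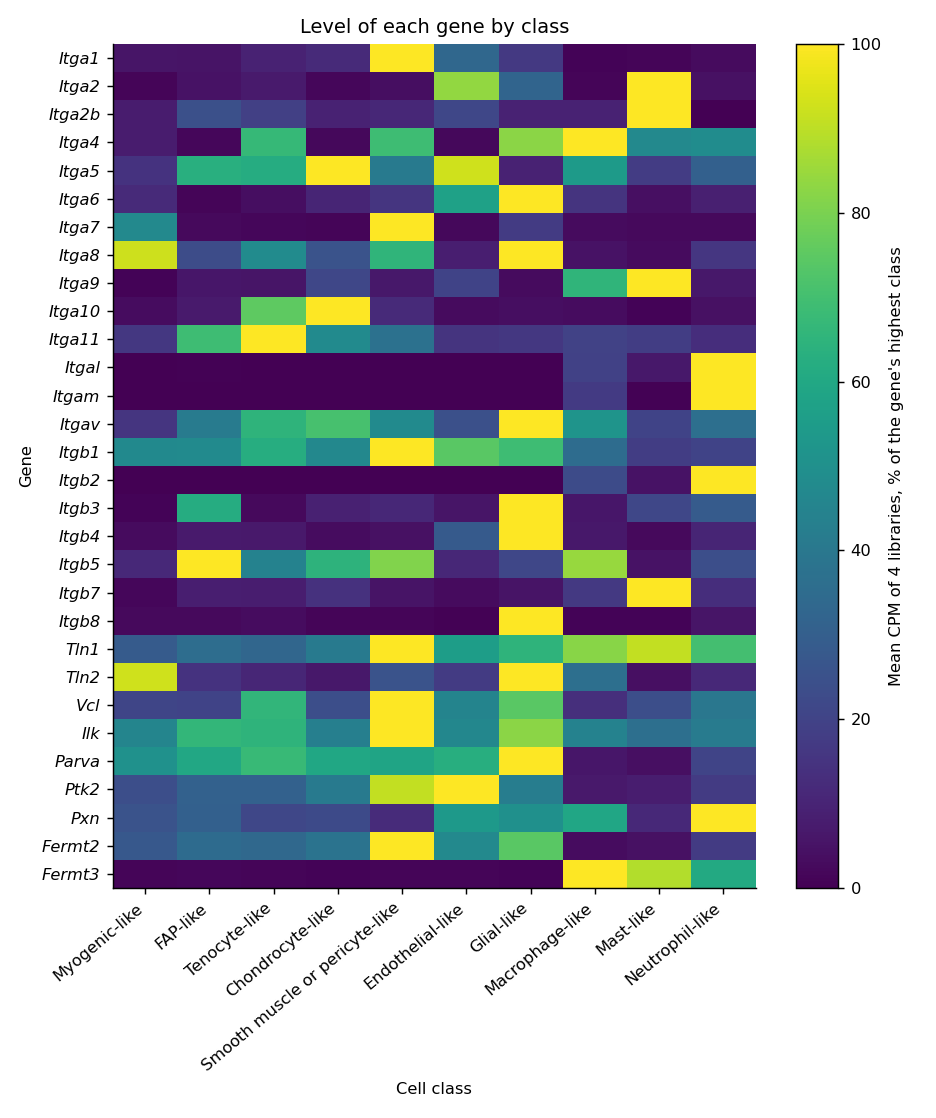
Mean CPM of the 30 genes that reached 10 CPM in some class, in the 10 named classes, each gene scaled to its highest class (100%); colour runs from 0 (dark) to 100% (yellow). Itgb8 is bright in glial-like cells alone, while Itgb1 keeps colour in every class.

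Itgb1, the beta subunit shared by most matrix-binding integrins, ran from 141 to 182 CPM over the mast-like libraries to 826 to 904 CPM in mural (smooth muscle or pericyte-like) cells. Myogenic-like cells (404 ± 8.45 CPM) and fibro-adipogenic progenitor (FAP)-like cells (407 ± 6.72 CPM) were neighbours in that order and their library values overlapped. Tln1, a talin that activates integrins, was lowest in myogenic-like cells (73.0 ± 1.81 CPM). Tln2, the talin of striated muscle and brain, was at 209 ± 17.8 CPM in myogenic-like and 225 ± 17.2 CPM in glial-like cells, which did not differ beyond their spread.

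Glial-like cells stood apart through Itgb8, the beta subunit of the receptor that releases active TGF-beta. Itgb8 was at 528 and 520 CPM there in WT and 490 and 399 CPM in KO. That mean was 17.5 times the next class, neutrophil-like cells, where the level was uneven (27.7 ± 28.5 CPM). Itgb4, the partner of alpha 6 in laminin-binding integrins of epithelia and Schwann cells, was at 35.4 and 39.4 CPM in WT and 28.6 and 31.0 CPM in KO glial-like cells, 3.55 times the next class. Itga6 itself was highest there as well (703 ± 29.7 CPM), followed by endothelial-like cells (402 ± 14.9 CPM). The share of cells with an Itgb8 UMI, after each cell was thinned to 2000 UMIs, was 53.3 ± 6.21% in glial-like, 2.40 ± 0.07% in FAP-like and 0.30 ± 0.39% in macrophage-like cells (unthinned 89.0, 11.1 and 1.86%). Median depths were 10766 UMIs in glial-like and 10845 in macrophage-like cells. The 10 FAP markers summed to 10276 to 11311 CPM in glial-like cells, above the 8 glial markers (4823 to 6755 CPM), and the part of those transcripts in the levels above was not tested.

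Smooth muscle or pericyte-like cells were highest for Itga1 and Itga7. Itga1, a collagen receptor subunit, was at 715 and 806 CPM in WT and 682 and 687 CPM in KO, 3.01 times the endothelial-like level. Itga7, the laminin receptor subunit of muscle, was at 100.4 and 94.4 CPM in WT and 91.8 and 80.6 CPM in KO. That was 2.13 times the level in myogenic-like cells, where the 4 libraries lay at 43.1, 43.3, 41.4 and 44.3 CPM (WT, then KO). No library of one class reached the range of the other.

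The leukocyte subunits kept to blood-derived classes. Itgam, Itgal and Itgb2 form the leukocyte integrins that bind complement fragments and ICAM proteins. In neutrophil-like cells Itgam was at 559 and 636 CPM in WT and 598 and 547 CPM in KO. Itgal was at 170 and 250.3 CPM in WT and 202 and 191 CPM in KO, and Itgb2 at 184 and 232 CPM in WT and 202 and 204 CPM in KO. These means were 5.95, 5.22 and 4.41 times the macrophage-like ones, but rest on 214 cells, 25 of them in each KO library. Mast-like cells were highest for Itgb7, a subunit of the mucosal homing receptors, at 38.5 and 58.0 CPM in WT and 42.4 and 29.8 CPM in KO. They were also highest for Itga2b, the platelet fibrinogen receptor subunit, at 15.4 and 28.5 CPM in WT and 22.2 and 16.8 CPM in KO. Platelet markers summed to no more than 6.52 CPM in those cells.

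Clusters within a class differed in alpha subunits, as a description of cells grouped by their other genes. The mural and macrophage-like clusters below come from a finer clustering (resolution 1), whose borders differ slightly from the named classes, and the FAP-like ones from the clustering that named the classes. Itga4 was at 152 ± 20.2 CPM in the 516 cells led by Actg2 and Myh11, contractile genes, and at 26.9 ± 1.90 CPM in the 1228 led by Higd1b. Itga8 was at 104 ± 13.2 and 15.6 ± 2.73 CPM in the same order, whereas Fermt2, the kindlin of non-blood cells, was lower in the Actg2-led cells (355 ± 25.7 against 599.9 ± 47.5 CPM). Among macrophage-like cells, the 204 led by H2-Aa, an antigen-presentation gene, carried Itgb7 at 51.6 ± 6.32 CPM. The 836 led by Pf4 carried it at 0.37 ± 0.28 CPM. The H2-Aa-led mean lay within the range of the mast-like libraries above. Itga4 (240 ± 26.5 against 72.5 ± 7.74 CPM) and Itgam (305 ± 68.2 against 67.5 ± 6.75 CPM) were higher in the H2-Aa-led cells, and Itga9 was lower (18.4 ± 7.37 against 224 ± 14.2 CPM). Among FAP-like cells, the 4082 led by Wnt2 and Ly6a held Itgb3, the beta subunit of a vitronectin receptor, at 34.6 ± 2.63 CPM and the 8532 led by Grm8 at 15.1 ± 2.18 CPM. Itga1 lay at 12.5 ± 1.16 and 45.3 ± 4.29 CPM in these FAP-like groups.

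The contrast of myogenic-like with FAP-like cells asked which adhesion genes separate the muscle lineage from the connective tissue cells around it. Myogenic-like cells were higher for Itga7, Itga6, Itga4, Itga8 and Tln2, and lower for the beta 3 and beta 5 subunits of vitronectin receptors and for Itga5. With library as a block, edgeR's quasi-likelihood test with Benjamini-Hochberg adjustment called 28 of the 31 genes tested, 10 higher and 18 lower in myogenic-like cells. The background was high, with 81.8% of all 16806 genes called, 39.2% higher and 42.6% lower. The median log2 fold change was -0.18 over the 31 genes and -0.05 over all genes. Scaling by total counts in place of TMM moved the median of all genes by -0.129 and turned the sign of 2 of the 31 genes, Fermt3, which was not called, and Itgb1, which was called as higher (log2 0.12) although its plain CPM was higher in myogenic-like cells in 1 of 4 libraries.

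Itga7 was at 2.02 and 2.35 CPM in WT and 2.31 and 2.51 CPM in KO FAP-like cells, far below every myogenic-like library above. Its log2 difference, myogenic-like over FAP-like, was 4.35 (SE 0.07, adjusted p = 1.31e-12 by edgeR). Itga6 was at 73.3 and 87.0 CPM in WT and 82.9 and 97.3 CPM in KO myogenic-like cells, against 8.63 to 12.7 CPM in FAP-like cells (log2 3.19, SE 0.06). Tln2 was at 227, 216, 207 and 185 CPM in myogenic-like and 30.3 to 35.5 CPM in FAP-like cells (log2 2.80, SE 0.05). Itga8, the alpha subunit of a nephronectin receptor, was at 53.3 to 64.6 CPM against 11.8 to 19.5 CPM (log2 2.14, SE 0.07). None of these 4 genes overlapped between the classes. Itga4 was higher as well (log2 2.24), at a mean of 7.11 CPM in myogenic-like and 1.59 CPM in FAP-like cells, and in 4 of 4 libraries.

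In the other direction, Itgb3 lay at 0.13 to 0.46 CPM in myogenic-like and 18.1 to 21.8 CPM in FAP-like cells (log2 -5.79, SE 0.16). Itgb5, which pairs with alpha V, lay at 14.9, 14.3, 12.7 and 12.3 CPM against 114 to 124 CPM (log2 -3.00, SE 0.05). Itgav, that alpha subunit, lay at 30.5, 33.7, 31.9 and 32.1 CPM against 84.6 to 88.4 CPM (log2 -1.30, SE 0.04). Itga5, the fibronectin receptor subunit, was at 14.0, 14.7, 13.3 and 13.8 CPM in myogenic-like and 53.2 to 66.6 CPM in FAP-like cells (log2 -1.99, SE 0.06). Itga9, a tenascin receptor subunit, was at 2.40, 4.08, 2.25 and 2.84 CPM against 18.0 to 19.9 CPM (log2 -2.57, SE 0.13). Partners other than Tln2 differed little, with log2 differences from -0.41 (Ilk) to 0.18 (Vcl). Calls for Itga1, Parva, Pxn and Vcl did not hold under every alternative.

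Within the myogenic-like cells, the contrast of myoblast-like with progenitor-like cells followed the subunits along differentiation. Itgb6, Itga4, Itga6 and Pxn rose, and 12 genes fell, led by Itga8 and Itga1. The edgeR test with library as a block called 16 of the 21 genes tested, 4 higher and 12 lower in myoblast-like cells, beside a background of 66% of all 11835 genes (32.3% higher, 33.7% lower). The median log2 fold change was -0.41 over the 21 genes and 0.00 over all genes. Total-count scaling moved the median of all genes by -0.145 and turned the sign of Ptk2 alone among the 21, which was not called. The stages were sub-clusters built without the 36 genes from the other genes of the same cells (3788 progenitor-like, 953 myoblast-like, 80 myotube-like and 1910 cycling cells without a stage). The 6 progenitor markers summed to 590 to 732 CPM in progenitor-like and 46.2 to 56.7 CPM in myoblast-like cells, and the 5 myoblast markers to 4883 to 6010 CPM and 13382 to 14166 CPM. The 10 leading genes of the progenitor-like sub-cluster by fold were Ung, Cxcl1, Ogn, Il1r1, Rcan2, Tagln, Gm266, Slc9a3r2, Fcgrt and Rcn3, with none of the progenitor markers among them, and with Tagln, a smooth muscle gene, and Ogn, a gene of fibroblasts.

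Among alpha subunits, Itga8 lay at 77.2 and 71.6 CPM in WT and 66.1 and 61.5 CPM in KO progenitor-like cells. In myoblast-like cells it lay at 2.54, 4.04, 3.24 and 3.11 CPM, a log2 fold change of -4.24 (SE 0.14, adjusted p = 1.09e-15 by edgeR). The stages were far apart in all 4 libraries. When stages were drawn from Pax7 and Myog UMIs in place of sub-clusters, the Itga8 value was -2.20. The share of cells with an Itga8 UMI at 2000 UMIs was 11.6 ± 1.05% in progenitor-like and 0.96 ± 0.61% in myoblast-like cells (unthinned 38.7 and 3.51%, at median depths of 8373.5 and 11453 UMIs), against 0.35 ± 0.41% in macrophage-like cells.

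Itga1 lay at 51.1, 45.9, 55.2 and 40.6 CPM in progenitor-like and 1.27, 2.94, 1.94 and 3.80 CPM in myoblast-like cells (WT, then KO; log2 -4.09, SE 0.19). Itga5 lay at 18.6, 17.5, 16.3 and 14.6 CPM and at 2.96, 3.68, 1.62 and 3.11 CPM (log2 -2.42, SE 0.21), and its value was -1.60 with stages drawn from Pax7 and Myog. Both genes were high in every progenitor-like library and low in every myoblast-like one. Itgav fell from 31.3, 37.0, 39.3 and 32.8 CPM to 18.2, 20.2, 13.0 and 19.4 CPM (log2 -0.86, SE 0.13). Itga7 fell by less, from 45.9, 48.5, 45.7 and 45.9 CPM to 35.2, 30.5, 29.1 and 31.8 CPM (log2 -0.41, SE 0.09, adjusted p = 0.000532 by edgeR). The stage ranges of these 2 genes did not overlap either.

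Itga6 and Itga4 moved the other way. Itga6 lay at 58.9, 66.9, 64.5 and 75.7 CPM in progenitor-like cells and at 151, 176, 159 and 187 CPM in myoblast-like cells (log2 1.48, SE 0.06, adjusted p = 3.08e-14 by edgeR). Cells with an Itga6 UMI at 2000 UMIs made up 11.7 ± 2.77% and 23.3 ± 2.95% of the stages (unthinned 35.7 and 67.7%), against 16.3 ± 1.56% of macrophage-like cells, which carry the gene at 106 ± 13.4 CPM. Itga4, the subunit that binds VCAM1 and fibronectin, lay at 3.17, 10.1, 3.52 and 5.67 CPM in progenitor-like and 8.47, 21.7, 8.10 and 24.2 CPM in myoblast-like cells (log2 1.63, SE 0.18). It was higher in the later stage in each library, although the stage ranges overlapped. Itga9 was not called (2.25, 3.70, 2.50 and 2.22 CPM against 2.12, 5.51, 2.27 and 3.80 CPM, log2 0.50, SE 0.31, adjusted p = 0.167 by edgeR).

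**Figure D2:**
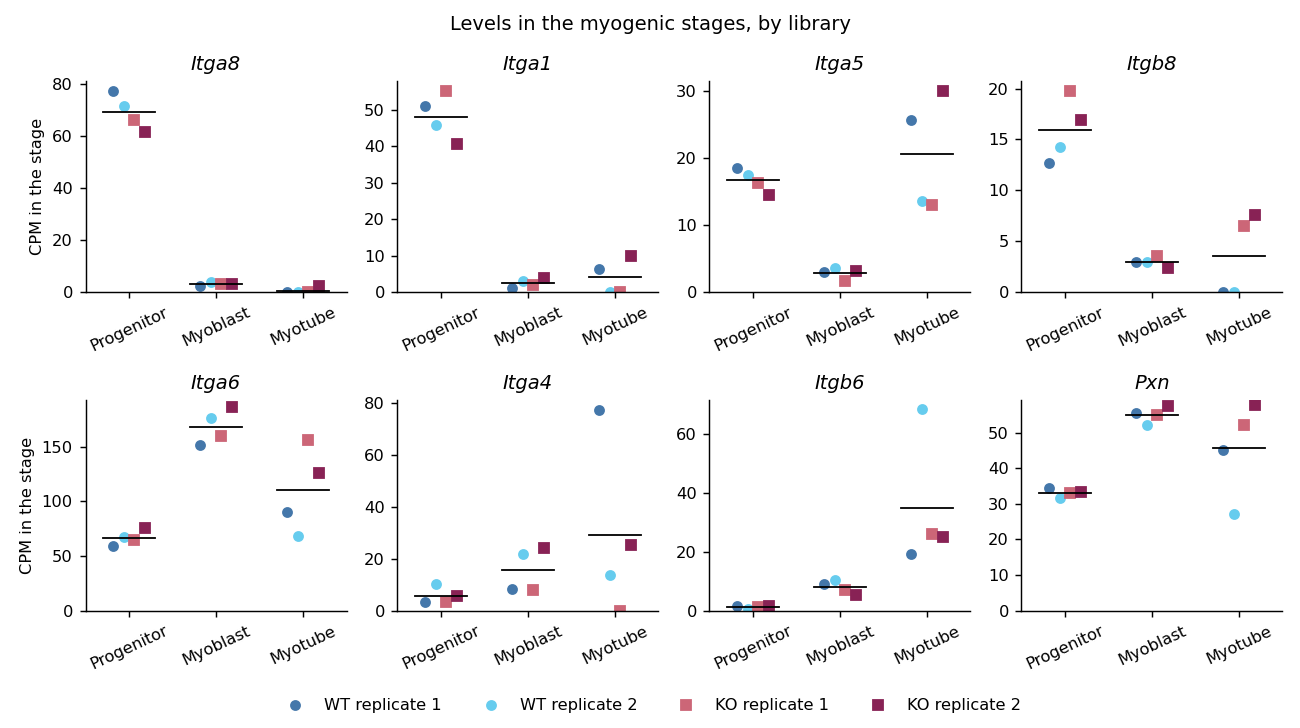
CPM of 8 genes along the stages (progenitor-like to myoblast-like to myotube-like), 1 point per library (circles WT, squares KO) and a bar for the mean of 4 libraries. Itga8, Itga1, Itga5 and Itgb8 (top row) lie near the axis in myoblast-like cells, while Itga6, Itga4, Itgb6 and Pxn (bottom row) lie higher there than in progenitor-like cells in each library, and the myotube-like points rest on 80 cells.

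Among beta subunits, Itgb6, which pairs with alpha V to bind latent TGF-beta, lay at 1.72, 0.69, 1.25 and 1.56 CPM in progenitor-like and 8.89, 10.3, 7.12 and 5.19 CPM in myoblast-like cells (log2 2.69, SE 0.31, adjusted p = 2.49e-07 by edgeR). The ranges did not overlap, on 43 and 86 UMIs in all. Myotube-like cells held it at 19.3, 68.2, 26.0 and 25.1 CPM on 22 UMIs, with no test. Itgb8 ran against it, at 12.7, 14.2, 19.8 and 16.9 CPM in progenitor-like and 2.96, 2.94, 3.56 and 2.42 CPM in myoblast-like cells (log2 -2.28, SE 0.20, and -1.57 with stages drawn from Pax7 and Myog). Itgb1 fell from 443, 449, 473 and 450 CPM to 326, 348, 326 and 333 CPM, a log2 change of -0.30 (SE 0.04), and every myoblast-like library lay below every progenitor-like one. Itgb5 was not called (log2 0.18, SE 0.16).

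Among the partners, 5 of the 9 tested fell, 1 rose and Tln1 and Ptk2, focal adhesion kinase, were not called, as was Fermt3, the kindlin of blood cells (log2 -0.70, SE 0.40). Pxn, paxillin, lay at 34.4, 31.6, 32.9 and 33.2 CPM in progenitor-like and 55.5, 52.2, 55.1 and 57.4 CPM in myoblast-like cells (log2 0.88, SE 0.08). Parva, alpha-parvin, lay at 97.1, 104, 98.0 and 84.3 CPM and at 33.5, 30.9, 36.3 and 38.4 CPM (log2 -1.31, SE 0.09). Both genes kept the stages apart in all libraries. Ilk, the kinase-like scaffold that binds parvin, lay at 69.0, 70.4, 63.7 and 62.8 CPM and at 34.7, 45.6, 32.7 and 33.9 CPM (log2 -0.71, SE 0.09). Tln2 lay at 266, 246, 242 and 202 CPM and at 159, 167, 157 and 150 CPM (log2 -0.44, SE 0.06). Vcl, vinculin, lay at 111, 113, 115 and 89.7 CPM and at 83.4, 79.8, 63.8 and 66.4 CPM (log2 -0.41, SE 0.08). Tln1 lay at 75.3, 76.8, 72.4 and 77.9 CPM and at 72.8, 63.6, 62.5 and 63.6 CPM, with a log2 value of -0.06 (SE 0.08) that was not called by edgeR (adjusted p = 0.490).

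**Figure D3:**
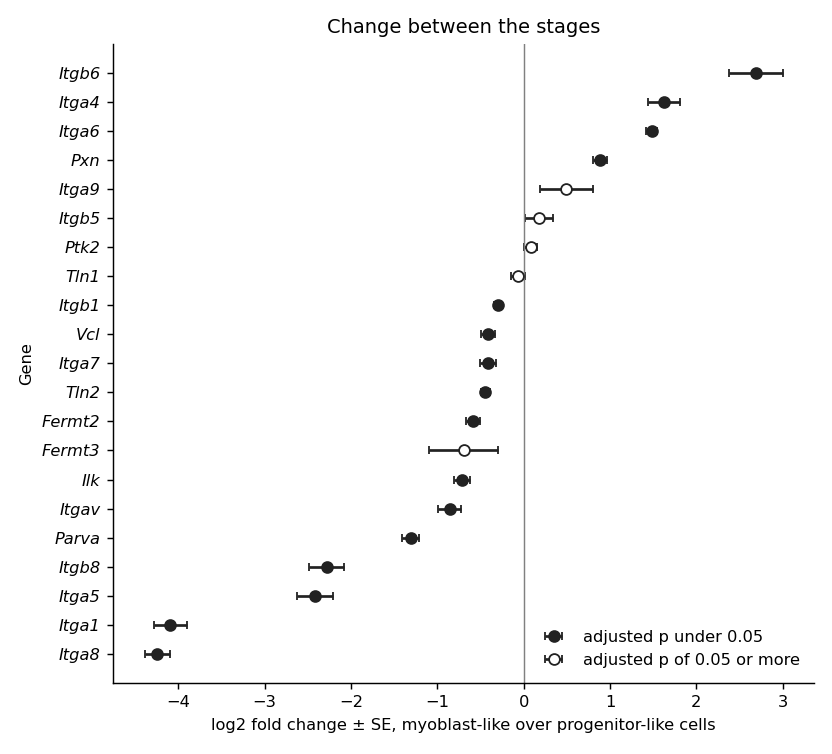
Log2 fold change ± SE of the 21 tested genes, myoblast-like over progenitor-like cells, from edgeR with library as a block; filled points have an adjusted p under 0.05 (16 genes) and open points do not (5 genes). Values run from -4.24 (Itga8) to 2.69 (Itgb6).

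Other adhesion genes were read from lists chosen by role. Unlike the integrin subunits and partners above, the listed genes were not left out when the stages were clustered. They could help to define the stages, so their stage changes are not independent of the grouping. The part of the grouping in these changes was not tested. Of 44 further focal adhesion genes, 39 were tested between the stages, and 10 rose and 23 fell, with a median log2 change of -0.56, beside 32.3% of all genes that rose and 33.7% that fell. Risers included Vasp (2.79, SE 0.07), which extends actin filaments, and Bcar1 (2.26, SE 0.13), the p130Cas scaffold. Cav1, caveolin (-3.60, SE 0.14), and Fblim1, migfilin (-3.49, SE 0.30), fell. Of 24 integrin ligand genes, 21 were tested, and 2 rose (Npnt, nephronectin, 1.09, SE 0.30, and Tgfb3, 0.53, SE 0.12) and 16 fell, with a median of -1.98. Vcam1, the counter-receptor of integrin alpha 4, fell by 4.31 (SE 0.15), Tnc, tenascin C, by 3.89 (SE 0.15), Fn1, fibronectin, by 2.84 (SE 0.11) and Lama2, the laminin chain of the muscle basement membrane, by 1.59 (SE 0.06) on the log2 scale.

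The contrast of KO with WT asked whether loss of SYISL moved these genes. No gene of the set was called by edgeR in any of 14 comparisons, and DESeq2 called none either. The comparisons were made in all kept cells, in 9 classes and in the stages, including myotube-like cells (11 to 31 per library). Over these comparisons edgeR called 0.0123% of 171017 gene tests. At an unadjusted p under 0.05 stood 25 of the 333 tests of these genes (7 higher and 18 lower in KO), which is 7.51%, beside 4.18% of all gene tests. These tests are not independent, since all comparisons share the same libraries, all kept cells hold every class and myogenic-like cells hold the stages. In myogenic-like cells 29 of the 36 genes were tested. The background was 0% of 14707 genes with an adjusted p under 0.05, and 3.77% at an unadjusted p under 0.05. Of the 29 genes 1, Itgb8, had an unadjusted p under 0.05 by edgeR, and 0 by DESeq2. Without KO replicate 2 edgeR called none of the genes in any of the 14 comparisons, and 3 of 29 had an unadjusted p under 0.05 in myogenic-like cells, beside 2.98% of 14939 genes.

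Itgb8 in myogenic-like cells lay at 10.2 and 12.2 CPM in WT and 14.5 and 13.4 CPM in KO. The KO libraries lay higher than either WT library, and the log2 fold change was 0.35 (SE 0.13, unadjusted p = 0.0258, adjusted p = 0.966 by edgeR). In progenitor-like cells it lay at 12.7 and 14.2 against 19.8 and 16.9 CPM (log2 0.49, SE 0.16, adjusted p = 0.990 by edgeR), and in FAP-like cells at 14.0 and 12.8 against 11.6 and 11.9 CPM. The test of the difference between these classes, KO effect in myogenic-like over FAP-like cells, gave 0.50 for Itgb8 (SE 0.16, unadjusted p = 0.0136, adjusted p = 1 by edgeR). That interaction called 0% of 17702 genes, and 2.97% of them, with Itgb8 as 1 of 31 genes of the set, had an unadjusted p under 0.05. With a library left out the interaction value ran from 0.31 (without WT replicate 1) to 0.70, and without KO replicate 2 it was 0.57.

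The subunits of the known muscle receptors were not called between the genotypes, with an SE from 0.06 to 0.43. Itgb1 was at 395 and 405 CPM in WT and 416 and 402 CPM in KO myogenic-like cells (log2 0.07, SE 0.06). Itga7, with the values given above, had a log2 fold change of 0.03 (SE 0.08). Itga6, at 73.3 and 87.0 against 82.9 and 97.3 CPM, had 0.21 (SE 0.11), and the genotypes overlapped. Itgav had 0.04 (SE 0.09), with overlapping genotypes. Itga5, at 14.0 and 14.7 against 13.3 and 13.8 CPM, had -0.04 (SE 0.12), with the KO libraries lower in CPM than either WT library. Itga9, at 2.40 and 4.08 against 2.25 and 2.84 CPM, had -0.30 (SE 0.30), and Itga4, at 5.12 and 10.3 against 3.61 and 9.45 CPM, had -0.18 (SE 0.43), with replicate 2 of both genotypes above replicate 1.

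Among the partners in myogenic-like cells, Tln2 lay at 227 and 216 CPM in WT and 207 and 185 CPM in KO (log2 -0.14, SE 0.07). Vcl lay at 114 and 112 against 107 and 95.4 CPM (log2 -0.12, SE 0.08), and Ilk at 67.0 and 67.1 against 62.6 and 63.1 CPM (log2 -0.05, SE 0.08). In these 3 genes the KO libraries were lower in CPM than either WT library. Tln1 lay at 74.9 and 73.1 against 70.6 and 73.6 CPM (log2 0.00, SE 0.08). None passed the test.

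Across the 29 genes in myogenic-like cells, 9 had a fold change above 0 and 20 below, with a median of -0.12, beside 0.00 over all genes. In TMM-scaled CPM the genotypes did not overlap for 14 of the 29 genes, 2 with KO higher and 12 with KO lower, while 16.7% and 16.4% of all genes were of these kinds. In plain CPM the counts were 1 and 14 of 29, beside 10.5% and 23.1% of all genes. In FAP-like cells 31 genes were tested and edgeR called none, beside 0% of all 17832 genes. None had an unadjusted p under 0.05 either, beside 2.61%, with 16 fold changes above 0 and a median of 0.01. Values ran from -0.69 (Itga3) to 0.35 (Itgb8) in myogenic-like and from -0.39 (Itgal) to 0.17 (Itga7) in FAP-like cells.

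**Figure D4:**
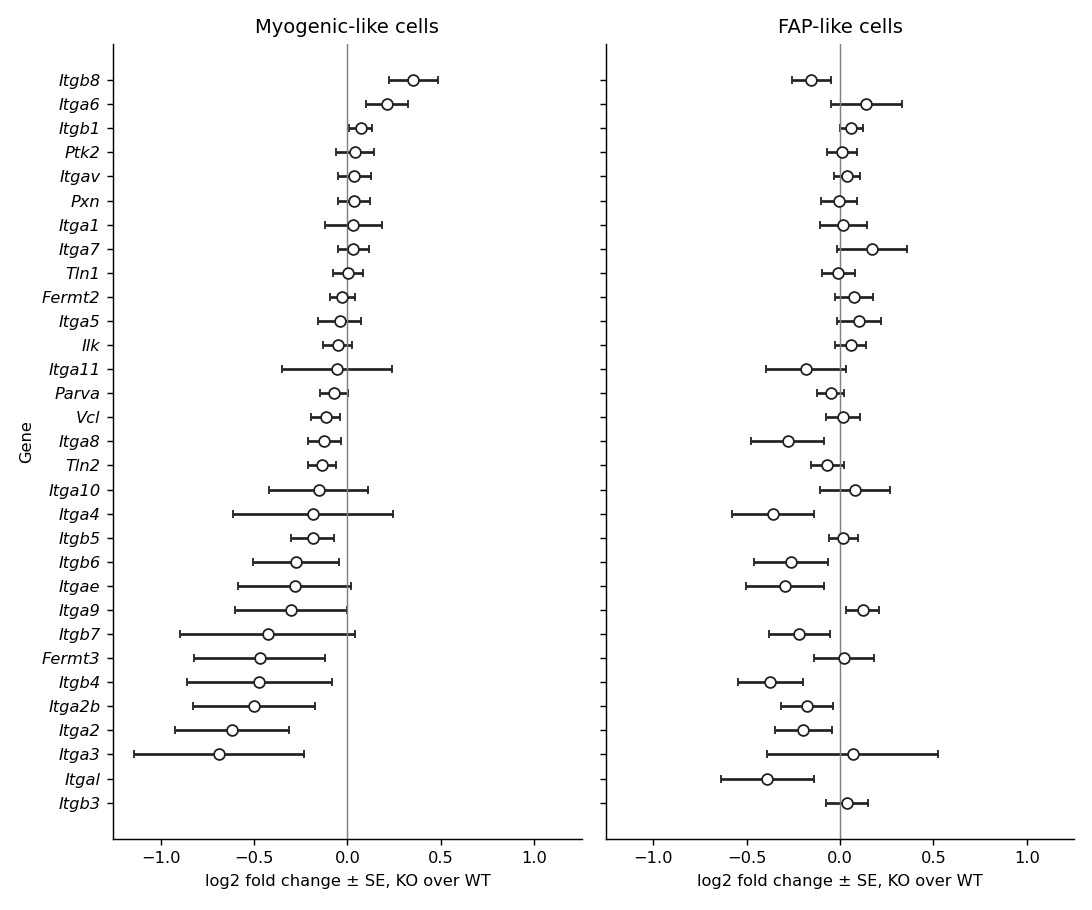
Log2 fold change ± SE, KO over WT, of the 29 genes tested in myogenic-like (left) and the 31 tested in FAP-like cells (right), from edgeR on summed UMIs; open points mark an adjusted p of 0.05 or more, which holds for every gene. Most myogenic-like points lie left of 0, 20 of 29, against 15 of 31 FAP-like points.

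Within the stages, no gene passed the adjustment. In myoblast-like cells Fermt2 lay at 97.8 and 118 CPM in WT and 80.3 and 80.9 CPM in KO (log2 -0.40, SE 0.12, unadjusted p = 0.00365, adjusted p = 0.822 by edgeR). Vcl lay at 83.4 and 79.8 against 63.8 and 66.4 CPM (log2 -0.30, SE 0.12, adjusted p = 0.956 by edgeR). The genotypes did not overlap in either gene. In plain CPM, KO was lower without overlap for 1974 of all 10008 genes and 5 of the 16 tested here. KO was higher without overlap for 1413 and 1. At an unadjusted p under 0.05, these 2 of 16 genes, both lower in KO, stood beside 5.13% of all 10008 genes (2.74% lower). In progenitor-like cells 4 of 25 genes stood at an unadjusted p under 0.05, beside 3.13% of 12967. Besides Itgb8 they were the collagen receptor subunit Itga2 (4.49 and 3.97 CPM in WT, 2.27 and 1.89 CPM in KO), Itga2b (2.25 and 2.74 against 1.36 and 1.11 CPM) and Itgb5 (16.4 and 18.3 against 13.7 and 12.2 CPM), each with an adjusted p of 0.990 by edgeR. In cycling myogenic-like cells Itga6 lay at 59.8 and 69.9 against 70.9 and 87.0 CPM (log2 0.32, adjusted p = 0.988 by edgeR), as 1 of 27 genes at an unadjusted p under 0.05, beside 4.15% of 12468. Without KO replicate 1 the Itga6 value was 0.47, with an adjusted p of 0.0195 by edgeR, in a fit that called 1.49% of 12777 genes. Without KO replicate 2 it was 0.15 and without WT replicate 1 it was 0.22, with no call in either.

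Summed over all kept cells, 6 of 33 genes had an unadjusted p under 0.05 and all 6 were lower in KO, beside 4.71% of all 20419 genes (2.35% lower), while none passed the adjustment. They were Itgb4 (log2 -0.47), Itgb2 (-0.69), Itgam (-0.64), Itga4 (-0.24), Itgal (-0.59) and Itgb8 (-0.44). Without WT replicate 1 the count was 0 of 34 (beside 1.98% of 20901 genes), and Itgal stood at -0.32, Itgam at -0.39 and Itgb8 at -0.28. Without KO replicate 2 the count was 6 of 33 (beside 7.27% of 20947 genes), and Itgb8 stood at -0.26. All are genes with their highest level in glial-like, macrophage-like or neutrophil-like cells. Itgb8 over all cells lay at 49.0 and 40.0 CPM in WT and 36.3 and 27.4 CPM in KO, the opposite order to myogenic-like cells. Glial-like cells made up 6.46 and 5.21% of kept cells in WT and 4.66 and 3.79% in KO, and neutrophil-like cells 1.22 and 0.734% in WT and 0.255 and 0.239% in KO. Macrophage-like cells, where the Itga4 mean was highest, made up 2.91 and 2.64% in WT and 2.74 and 2.93% in KO, and the genotypes overlapped. In a sum over all cells, fewer cells of a class and less RNA per cell cannot be told apart, and the part of these shares in the lower levels was not tested beyond the values within classes that follow.

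Within glial-like cells Itgb4, with the values above, had a log2 fold change of -0.32 (SE 0.13, unadjusted p = 0.0378 by edgeR) and Itgb8 of -0.23 (SE 0.11, unadjusted p = 0.0646 by edgeR). Itga1 stood the other way there, at 102 and 119 CPM in WT and 129 and 133 CPM in KO (log2 0.26, unadjusted p = 0.0340 by edgeR). Within macrophage-like cells Itgam lay at 115 and 109 CPM in WT and 84.6 and 84.5 CPM in KO (log2 -0.39, unadjusted p = 0.0100 by edgeR). Itgb2 lay at 55.2 and 53.7 against 33.8 and 43.9 CPM (log2 -0.46, unadjusted p = 0.0256 by edgeR). In Itgb4, Itgb8, Itgam and Itgb2 the genotypes did not overlap, and every fold change was nearer to 0 than in all kept cells. These genes were picked by their unadjusted p in all kept cells, which favours larger fold changes there. The reason for that order was not tested. Such separation was common: in plain CPM, 2237 of 12840 genes in glial-like cells had KO lower without overlap, and 1876 had KO higher. Of the 26 genes of the set tested there, 8 and 2 were of these kinds. In macrophage-like cells the counts were 2156 and 1550 of 11303 genes, and 4 and 2 of the 25 of the set. Itga7 in macrophage-like cells, a gene of muscle, lay at 1.43 and 1.07 CPM in WT and 4.82 and 3.51 CPM in KO on 34 UMIs (log2 1.72, unadjusted p = 0.0152 by edgeR). With the cells that Scrublet called doublets removed (7.03% of macrophage-like cells), or without KO replicate 1, Itga7 did not pass the low-count filter there. Without KO replicate 1 Itgb2 in macrophage-like cells was at -0.27. In neutrophil-like cells, which were too few to test and where Itgam, Itgal and Itgb2 are highest, the genotypes overlapped in all 3 genes (values above). In macrophage-like cells, Itgal (56.6 and 32.2 against 32.8 and 34.2 CPM, log2 -0.38) and Itga4 (105 and 94.1 against 82.3 and 94.2 CPM, log2 -0.15) overlapped between genotypes. Macrophage-like cells also held neutrophil markers at a summed 648 and 433 CPM in WT and 227 and 290 CPM in KO, and their part in the Itgam and Itgb2 values was not tested. At an unadjusted p under 0.05 stood 2 of 26 genes in glial-like cells, beside 3.7% of 12840, and 3 of 25 in macrophage-like cells, beside 4.34% of 11303. The adjusted p by edgeR was 0.998 for each gene named in glial-like and 0.994 for each in macrophage-like cells. The other tests at an unadjusted p under 0.05 were 3 of 23 in chondrocyte-like cells (beside 2.84% of 12110 genes), 2 of 18 in mast-like cells (beside 6.42% of 8159) and 1 of 23 in tenocyte-like cells (beside 5.16% of 11549).

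**Figure D5:**
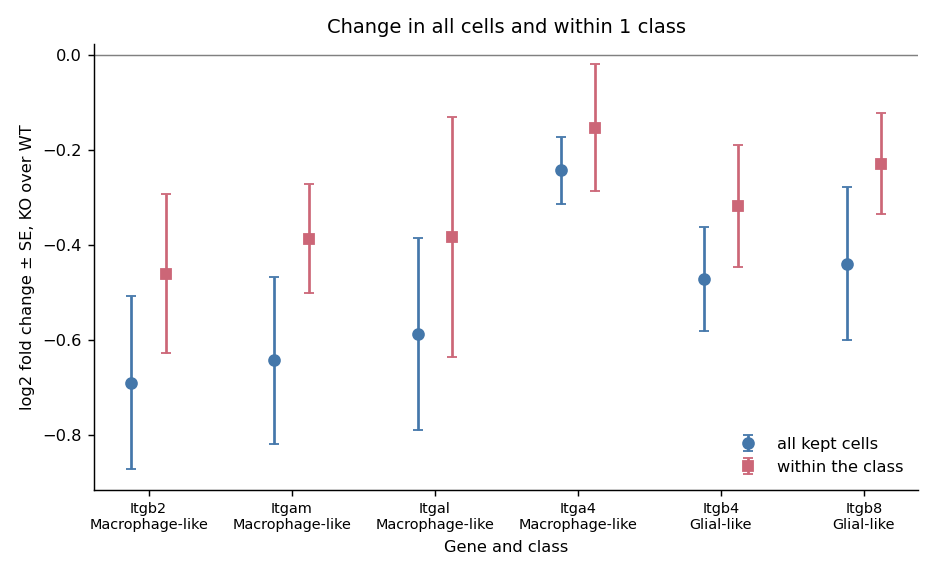
Log2 fold change ± SE, KO over WT, of the 6 genes with an unadjusted p under 0.05 in all kept cells (blue circles) and the same gene within macrophage-like or glial-like cells (red squares). Every square lies below 0 and above its circle, which comes from the fit by which the genes were picked. Neutrophil-like cells, where Itgam, Itgal and Itgb2 are highest and the genotypes overlapped, were not tested and are not drawn.

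The lists of related genes gave no calls between the genotypes either. Of the 44 further focal adhesion genes 42, and of the 24 ligand genes 23, were tested in myogenic-like cells, and edgeR called 0 in each. At an unadjusted p under 0.05 there were 1 and 3 genes, all higher in KO, beside 3.77% of all genes, with list medians of 0.02 and 0.00. In FAP-like cells the counts at an unadjusted p under 0.05 were 1 of 43 and 2 of 23, beside 2.61% of all genes.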

How the data were processed

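The deposited values were whole-number UMI counts per gene and cell, which the authors made with Cell Ranger (7.2.0, mm10 per the submitters' processing notes). The study's own cell limits were applied, namely 1000 to 6000 genes, 1000 to 25000 UMIs and a mitochondrial share below 8%. Clustering in scanpy (1.11.5) used 3000 variable genes without the 36 genes, 30 principal components, 20 neighbours and resolution 0.3 (1 for the finer mural and macrophage-like clusters), without the Harmony integration of the study and without doublet removal, so the class names are rebuilt and not the authors'. Counts were summed per library and class or stage, and classes under 50 cells in a library were not tested. That limit was not applied to the stages, so the genotypes were also compared in myotube-like cells (11 to 31 per library). edgeR (4.0.16) quasi-likelihood tests with TMM scaling, filterByExpr and Benjamini-Hochberg adjustment over all genes were the main fits, with library as a block between classes and stages, at a threshold of 0.05. That test prints no SE, so the SE given is the absolute log2 fold change divided by the square root of its F statistic. DESeq2 (1.42.0) was an alternative. The fits were tested on simulated data. Gene names were taken from the files, and no whole genome sequence was used here. The members and lists were chosen with earlier results of these data known. A rule named 11 muscle receptor and partner genes, and those at an unadjusted p under 0.05 in myogenic-like or FAP-like cells. It also named the largest called stage changes, and genes at 10 CPM or more with at least 2 times the next class's mean. Other genes, such as those at an unadjusted p under 0.05 in other cells and those of single clusters, were picked from the results. Counts of UMIs limit precision by counting error, and library totals set the depth.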

Additional observations from a re-analysis of the deposited data

How the results depend on the processing

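Between the stages 16 genes were called as reported, 19 without a low-count filter, 18 with stages drawn from Pax7 and Myog UMIs and 16 to 17 with a library left out, and all 16 folds kept direction and call in each of 160 values. Between myogenic-like and FAP-like cells 28 were called, 26 by DESeq2, 27 with RLE factors, 27 without the library block and 25 to 28 with a library left out. The calls lost there were Itga1 (no library block, without KO replicate 1, without WT replicate 2), Parva (DESeq2, without KO replicate 1, without WT replicate 2), Pxn (those 3 and RLE) and Vcl (without WT replicate 1), and the cause was not tested. For KO against WT, 349 of 358 fold values kept direction and side of the threshold and 8 turned sign, all with a library left out. The other 1 gained the call (Itga6 in cycling cells, with KO replicate 2 as the only KO library). The values that turned sign are given next. They were uncalled values in myogenic-like cells, ranging from -1.06 to 0.39 for Itga4, -0.081 to 0.0025 for Itga5, -0.036 to 0.097 for Itga7, -0.63 to 0.12 for Itga9, -0.025 to 0.10 for Itgav and -0.042 to 0.053 for Tln1. With the replicate block 0 genes were called in each KO comparison. Samples of the same number shared a correlation of deviations of 0.0773 in myogenic-like and 0.164 in FAP-like cells over 2 pairs, and the labels give no shared origin, so the number was not taken as a pairing. Removing cells called by Scrublet moved the neutrophil-like means to 672 (Itgam), 248 (Itgal) and 245 (Itgb2) CPM, while the other 15 means, from that removal or from clustering at resolution 1, stayed within 1 SD. Unthinned and 1000-UMI shares of cells moved by more than 1 SD in all 12 cases. The 80 myotube-like cells and levels under 3 CPM rest on few UMIs, and 2 libraries a group limit what the genotype tests can call.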
